A study of Mus musculus with 8 samples.

Results

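The 10 genes described here (Foxj1, Dnah5, Dnah9, Dnah11, Dnai1, Tekt1, Rsph1, Ccdc39, Ccdc40 and Mcidas) are markers of cells with motile cilia, which line the non-sensory epithelium of the nasal cavity and vomeronasal organ. They were chosen by name from the 48831 genes counted in each library, by matching gene identifiers to GENCODE M21 symbols. Of the 10 genes, 10 matched and 10 passed the filter on low counts, so every member was tested. Dnai1 is listed in that annotation under its older symbol Dnaic1. RNA of dissected mouse vomeronasal epithelium was sequenced as whole tissue in 8 libraries, all from C57BL/6J mice aged 8 weeks with no genetic change or drug named in the labels. Females and males each gave 2 non-flushed pools of 2 mice and 2 flushed libraries of 1 mouse, so that each of the 4 groups held 2 libraries. The protocol attached to all 8 libraries describes flushing the blood with heparin, whereas the descriptions call the pools non-flushed. The descriptions were followed here. The file headers also place the pools and the flushed mice in separate run folders and lanes, so preparation, number of mice, run and lane cannot be told apart.

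A multiciliated cell of the airway carries many motile cilia that beat together and move mucus. Each such cilium is built around an axoneme of doublet microtubules with a central pair, and dynein arms on the doublets slide them against each other. The programme begins with Mcidas and its relative Gmnc, which act with E2F factors to open the way to centriole multiplication, and continues with Foxj1, the forkhead factor that turns on the genes of the motile axoneme together with RFX factors. Vomeronasal sensory neurons bear microvilli rather than cilia, and the motile cilia of the organ belong to its non-sensory side. In whole tissue, fewer ciliated cells and less RNA per ciliated cell cannot be told apart.

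RFX factors bind the X-box, a paired motif found before many ciliary genes, and promoter sequences were therefore set beside the expression values. RefSeq promoter windows (build GRCm38.p6, from 250 bases before to 50 after each start) held 8 of the 10 genes. Foxj1 and Rsph1 had no entry. Motifs were read on both strands. The X-box was taken as GT, 2 free letters, CC, a spacer of 2 or 3 free letters, G, 1 free letter and AAC, which makes 13 or 14 letters. GTTGCC is a single arm of the X-box, which overlaps some full matches, and GTAAACA is a forkhead motif. The shorter X-box was found in Dnai1 and Dnah9, the single arm in Tekt1 and Mcidas, and neither the longer X-box nor the forkhead motif in any of the 8. The following windows of 100 bases before the RefSeq start (for Mcidas, centred on its match) show these matches in capitals, read 5′ to 3′ on the strand of the gene.
Dnai1 (Dnaic1), chr4:41569694-41569793, plus strand: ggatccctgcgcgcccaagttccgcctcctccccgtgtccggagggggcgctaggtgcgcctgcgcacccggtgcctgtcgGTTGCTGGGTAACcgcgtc
Dnah9, chr11:66168552-66168651, minus strand: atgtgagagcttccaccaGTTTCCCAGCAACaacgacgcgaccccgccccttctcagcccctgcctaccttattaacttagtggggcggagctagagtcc
Tekt1, chr11:72361883-72361982, minus strand: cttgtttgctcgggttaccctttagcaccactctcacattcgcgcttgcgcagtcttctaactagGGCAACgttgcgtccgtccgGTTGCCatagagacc
Mcidas, chr13:112993626-112993725, plus strand: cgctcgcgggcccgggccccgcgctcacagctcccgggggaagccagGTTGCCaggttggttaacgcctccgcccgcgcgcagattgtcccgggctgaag

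The X-box of Dnai1 began 19 bases before the RefSeq start and read as the motif on the opposite strand, whereas that of Dnah9 began 82 bases before its start on the gene's own strand. The arms in Tekt1 began 35 and 15 bases before the start, on opposite strands, and that of Mcidas lay 195 bases before it. In the annotation of the count files, the last 19 bases of the Dnai1 window lie within its first exon, 32 bases of the Dnah9 window overlap exons of Gm12296, and the Tekt1 window lies within an intron of Tekt1. The longer X-box is shown by 2 other genes of the motile cilia lists, chosen for a high level and a window free of annotated exons. Cfap206 encodes a radial spoke protein and Lrriq1 is a marker of ciliated cells.
Cfap206, chr4:34730207-34730306, minus strand: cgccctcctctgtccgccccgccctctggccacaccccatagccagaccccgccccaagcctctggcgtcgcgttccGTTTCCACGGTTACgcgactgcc
Lrriq1, chr10:103236323-103236422, minus strand: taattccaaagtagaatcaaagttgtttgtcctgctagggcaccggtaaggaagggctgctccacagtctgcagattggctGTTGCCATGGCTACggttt

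Across 9 lists of motile cilia genes, which together hold 125 genes, 100 genes had a promoter entry. The longer X-box was present in 21 of these 100 and in 2.49% of the 27025 genes of the promoter table. The shorter X-box was present in 16 and in 1.81% of the table. The single arm was present in 51 and in 14.1% of the table, and the forkhead motif in 7 and in 4.05%. A match is a description of the letters in these windows and not evidence of binding.

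Levels were compared between genes per length, as RPKM (reads per kilobase of exon, scaled to library size), averaged over the 8 libraries with the SD between them. Foxj1 (20.3 ± 6.65 RPKM, n = 8) and Dnah5 (20.1 ± 4.87) were the highest, and Foxj1 exceeded Dnah5 in 3 of 8 libraries, so this pair did not differ beyond its spread. Rsph1 (11.2 ± 3.4) stood below Dnah5 in 8 of 8 libraries and above Tekt1 (9.74 ± 2.66) in 8 of 8. Dnah9 (8.46 ± 1.92) was below Tekt1 in 6 of 8 libraries. Ccdc39 (5.17 ± 1.02), Dnah11 (4.88 ± 0.791) and Ccdc40 (4.67 ± 1.33) formed a group whose neighbours kept their order in 6 and 4 of 8 libraries and were not separated. Dnai1 (2.07 ± 0.824) was lower in 8 of 8 libraries, and Mcidas (1.05 ± 0.42) was the lowest of the 10 on average, below Dnai1 in 7 of 8.

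Defining markers of ciliated cells were all detected. All 22 genes of the ciliated cell list passed the filter, led by Sec14l3 (48.8 RPKM), which is also on the list of sustentacular cell genes, Tppp3 (43.6 RPKM), a tubulin-binding protein, and Ccdc153 (33.5 RPKM). Other sources of axonemal RNA were checked by their own markers. Of 9 sperm-line markers, 6 were at 0 in every library, and their summed level was at most 0.18 CPM (counts scaled to library size with TMM factors). The ependymal list overlaps the ciliated list in Tmem212, Ccdc153 and Dynlrb2, so it does not separate these cells. The club cell marker Scgb1a1 was at 0 in every library, and Scgb3a2 also missed the filter, which 10 of the 12 airway secretory genes passed. Some others of that list were abundant, such as Reg3g (505 RPKM) and Muc5b (27.8 RPKM). Trpc2, the channel that defines vomeronasal sensory neurons, was listed at 0, and all of its exon bases also belong to overlapping genes on the same strand, whose shared reads the authors' counting left out. No exon base of the 10 motile cilia genes was shared with another gene on the same strand.

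Mcidas (chr13:112993868-113000394), a coiled-coil regulator that starts the multiciliated programme, rested on few reads, from 28 to 101 per library. It measured 2.39 and 1.64 CPM in female pools 1 and 2, 1.51 and 1.84 in male pools 1 and 2, 2.36 and 3.17 in flushed females 2 and 3, and 2.34 and 4.54 in flushed males 1 and 3. Flushed male 3 was the highest library, and the range of the pools met that of the flushed mice at female pool 1. Foxj1 (chr11:116330704-116335399) measured 78.2 and 58.9 CPM in the female pools, 54.5 and 64.3 in the male pools, 36.2 and 67.8 in flushed females 2 and 3, and 29.7 and 36.2 in flushed males 1 and 3. Flushed female 3 lay among the pools, and the other 3 flushed libraries lay below every pool.

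Dnah5 (chr15:28203752-28472045), an outer arm dynein heavy chain whose loss causes primary ciliary dyskinesia, was the most counted member, with 4961 to 11706 reads per library. Its level was 384 and 254 CPM in the female pools, 332 and 285 in the male pools, 284 and 459 in flushed females 2 and 3, and 223 and 288 in flushed males 1 and 3. Dnah9 (chr11:65831282-66168551), the heavy chain of the distal outer arm, measured 167 and 113 CPM, 142 and 115, 116 and 188, and 97.1 and 140 in the same libraries. Both genes were highest in flushed female 3, next in female pool 1 and lowest in flushed male 1, and their preparations and sexes overlapped. Dnah11 (chr12:117877982-118199043), the heavy chain of the proximal outer arm, measured 72.7 and 58.5 CPM in the female pools, 72.1 and 63.4 in the male pools, 65.0 and 94.6 in flushed females 2 and 3, and 61.9 and 75.9 in flushed males 1 and 3. Its highest library exceeded its lowest 1.62-fold, the smallest such ratio of the 10 genes. Dnai1 (chr4:41569775-41638158), an outer arm intermediate chain, measured 9.08 and 4.91 CPM, 6.32 and 5.17, 5.30 and 9.03, and 2.93 and 3.42 in that order. The flushed males were its lowest libraries, and its highest-to-lowest ratio of 3.09 was the largest of the 10.

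Ccdc39 and Ccdc40 together form the ruler that sets the axonemal repeat along which inner arms and radial spokes attach. Ccdc39 (chr3:33812362-33844310) measured 40.7 and 32.2 CPM in the female pools, 32.6 and 35 in the male pools, 40.7 and 55.4 in flushed females 2 and 3, and 34.6 and 36.6 in flushed males 1 and 3. Ccdc40 (chr11:119228572-119265236) measured 41.4 and 30.9 CPM, 33.5 and 28.3, 20 and 32.6, and 18.3 and 20.6 in the same order. Although their products act as partners, Ccdc39 was higher in flushed females than in most pools, whereas Ccdc40 was lower in 3 of 4 flushed libraries than in every pool. Rsph1 (chr17:31255019-31277356), a radial spoke head protein, measured 18.4 and 13.7 CPM in the female pools, 13 and 12.6 in the male pools, 9.55 and 19.2 in flushed females 2 and 3, and 9 and 9.31 in flushed males 1 and 3. Tekt1 (chr11:72344722-72362442), a filament protein inside the doublet microtubules, measured 20.6 and 14.3 CPM, 16.2 and 17.2, 11.6 and 23.0, and 11.3 and 12.2. For both, flushed female 3 was the highest of the 8 libraries and the other 3 flushed libraries were the lowest.

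**Figure D1:**
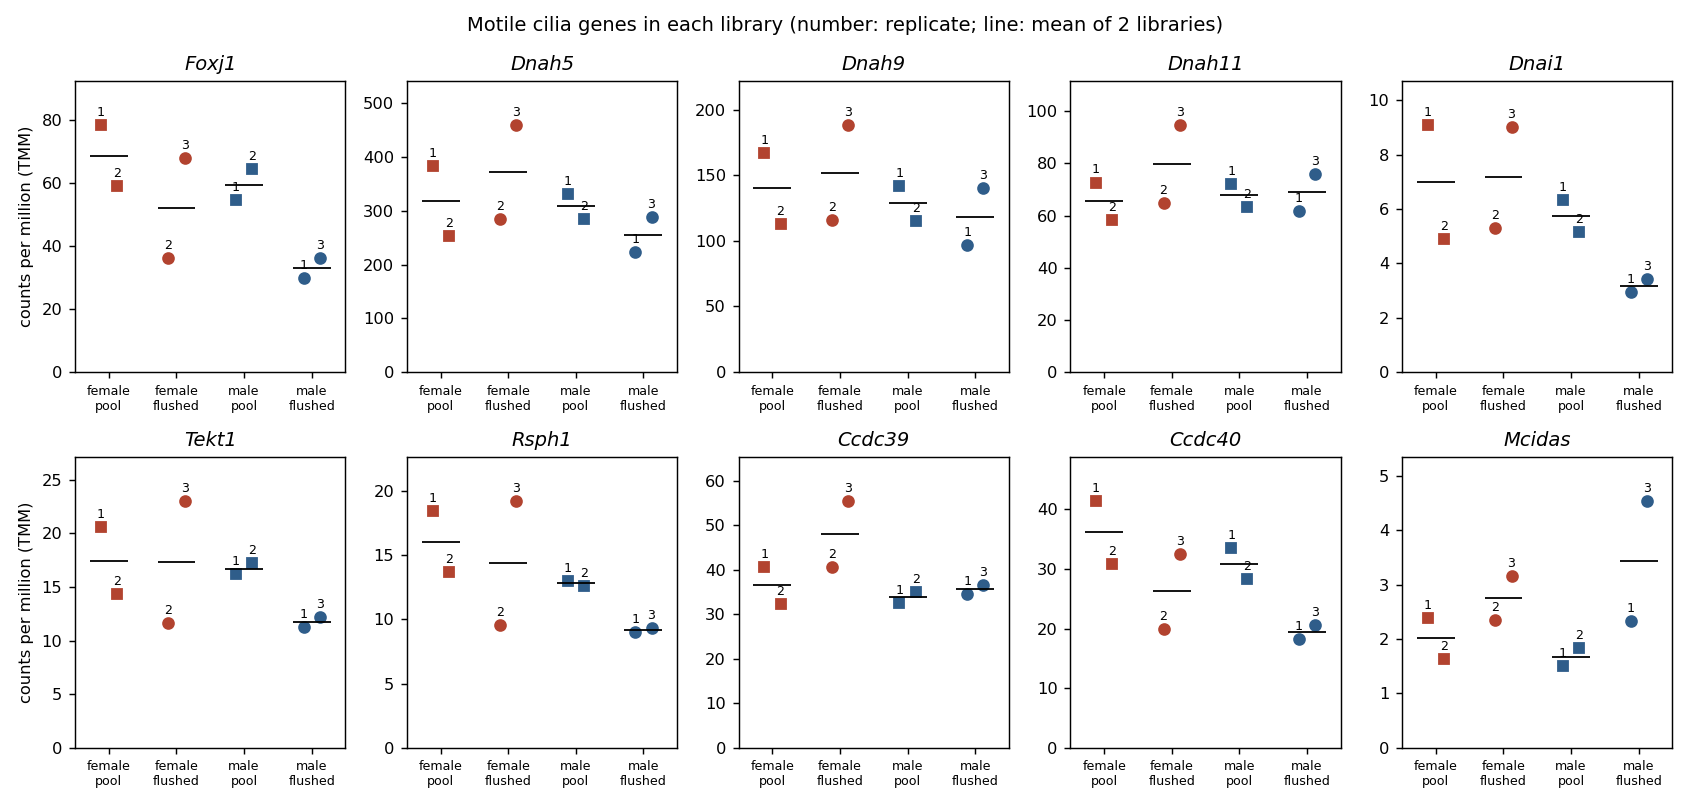
Level of each of the 10 genes in CPM (vertical axis, from 0, TMM-scaled) in the 4 groups (horizontal axis). Points are single libraries with their replicate number, squares are pools, circles are flushed mice, and lines are means of 2 libraries. Flushed female 3 and female pool 1 stand above their partner libraries in each of the 10 genes.

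Flushed female 3 exceeded flushed female 2 in all 10 genes, by 1.35-fold (Mcidas) to 2.01-fold (Rsph1), and female pool 1 exceeded female pool 2 in all 10, by 1.24-fold (Dnah11) to 1.85-fold (Dnai1). In the males, the ratio of pool 1 to pool 2 lay between 0.824 and 1.23, and that of flushed male 3 to flushed male 1 between 1.03 and 1.94, the last again for Mcidas. Flushed female 3 was the highest library for 6 of the 10 genes, compared with 10% of all 20601 genes tested. Female pool 1 was the highest for 3 (Foxj1, Dnai1 and Ccdc40), compared with 9.47% of all genes, and flushed male 3 for 1 (Mcidas), compared with 13.5%. These 2 female libraries were the 2 highest for 7 of the 10 genes and for 78 of 123 tested genes of the motile cilia lists, compared with 3.26% of all genes tested.

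The spread within groups, taken as the SD of log2(CPM + 0.5) left after subtracting each group's mean, was 0.20 (Ccdc39) to 0.40 (Dnai1), with a median of 0.37. Over the 17870 tested genes whose counts averaged at least 20, the median was 0.13 and the 95th percentile 0.36. The inner dynein arm list had a median spread of 0.46 and the lists together 0.33. The 10 genes therefore varied more between libraries of a group than the typical gene.

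The 9 genes other than Mcidas moved together. Their 36 pairs had a median Pearson r of 0.80 over the 8 libraries (range 0.19 to 0.97), and of 0.91 (0.81 to 0.99) once group means were removed. Pairs with Mcidas had a median r of -0.08 (-0.36 to 0.58), and of 0.68 (0.52 to 0.78) without the group means. Mcidas thus followed the other genes more closely once group means were removed, and no r between group means is given. With 2 libraries per group, the residuals of a group mirror each other, so the 8 points hold only 4 free values. These points share libraries and depth, and they are given as descriptions.

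Among 17860 other genes, likeness to the members was measured as the Pearson r of log2(CPM + 0.5) with the members' mean z-score over 8 libraries. Of the most alike, 9 are given here, with r from 0.972 to 0.989. They were Ttll9 (0.989), a tubulin glutamylase family member, Tsnaxip1, Zfp474, Caps2, Frmpd2, Ankfn1, Akr1c18, Tex14 and Nek2, a centrosomal kinase. None of these 9 was on a motile cilia list. Each of the 9 was highest in flushed female 3 and next in female pool 1. They were picked for likeness to the members over these same libraries, so a shared library order comes with the choice. Akr1c18 had the widest range, from 0.238 CPM in flushed male 1 to 3.29 CPM in flushed female 3. An r above 0.9 was reached by 110 genes, of which 34 were among the 112 comparable genes of the lists.

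In the same measure, genes of most lists ranged widely and the lists overlapped. Outer arm genes ran from 0.04 to 0.96 and intraflagellar transport genes from -0.35 to 0.87, and no difference between lists was tested. Median r was 0.91 for ciliated cell markers, 0.90 for inner dynein arms, 0.81 for the ruler and nexin-dynein link, 0.80 for radial spokes and for tektins and the doublet lumen, 0.78 for outer arms and for the central pair, and 0.77 for arm assembly factors. It was 0.48 for intraflagellar transport and 0.27 for the BBSome, which serve all cilia, and 0.27 for regulators of multiciliated cell formation. It was -0.05 over all genes. Among other cell types, airway secretory genes had a median r of 0.72, with Cyp2f2 (0.86), Muc5b (0.85), Muc5ac (0.85) and Reg3g (0.84) the highest, and basal epithelial genes had 0.45, led by Krt15 (0.87). Vomeronasal sensory neuron genes had -0.32 and olfactory sensory neuron genes -0.18 (range -0.49 to 0.36). Of the olfactory list, Cnga2 (1.08), Gnal (1.21) and Stoml3 (1.23) stood above their log2 mean over all libraries in flushed female 3. The rest of that list ran from -0.11 (Adcy3) to 0.14 (Slc17a6) there. The sustentacular gene Cyp2g1 was at 1.26, with a list median of 0.31. In flushed male 1, where the members' median was -0.45, Cnga2, Gnal, Stoml3 and Cyp2g1 were at 1.65, 1.14, 1.03 and 0.87. The part of these other cells in the motile cilia values was not tested.

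**Figure D2:**
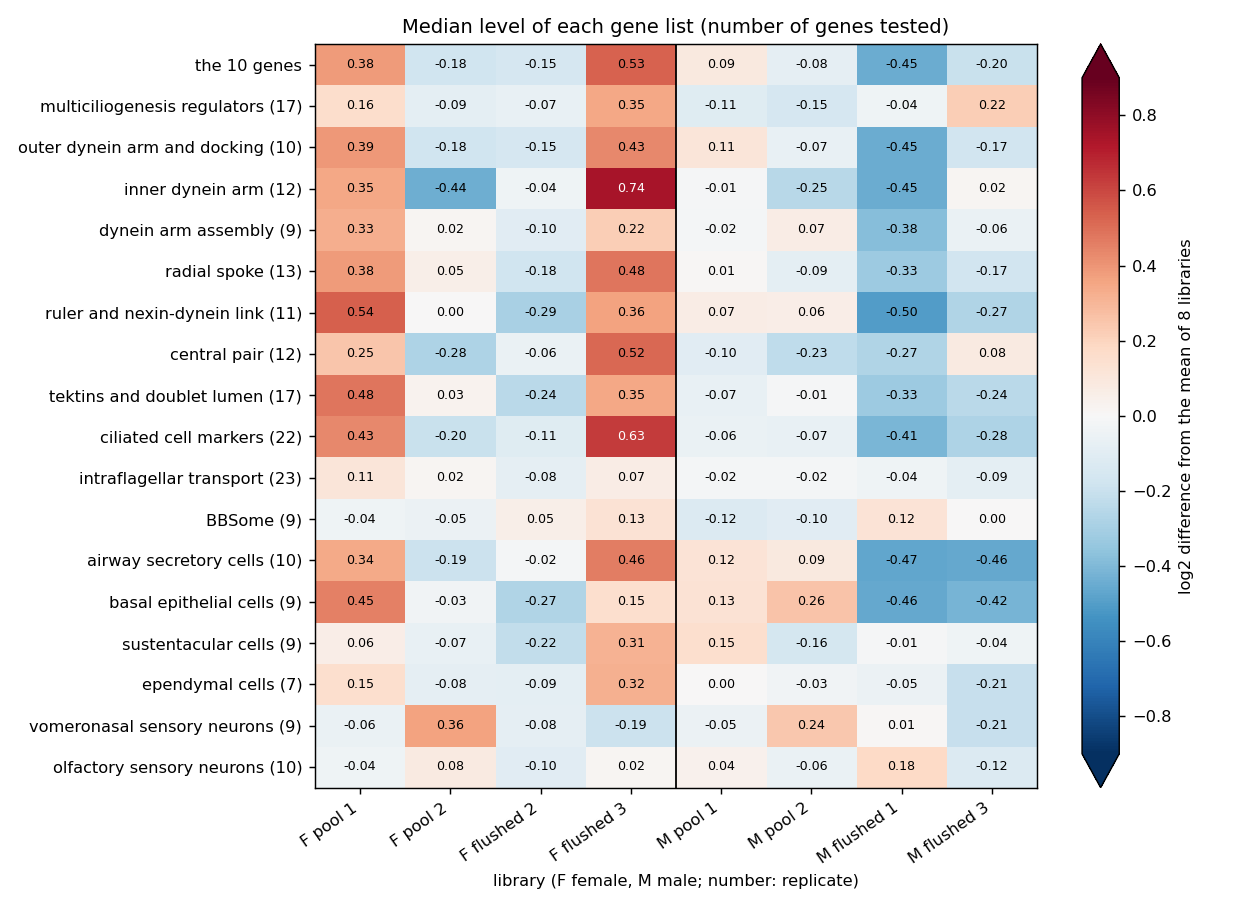
Median log2 difference of each gene list from its mean over the 8 libraries (rows, with the number of genes tested; columns, libraries with females on the left; colour and printed number, log2 units). The 10 genes reach 0.53 in flushed female 3 and 0.38 in female pool 1 and are at -0.45 in flushed male 1. Airway secretory genes are high in the same 2 female libraries (0.46 and 0.34).

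Flushed mice were compared with pools to ask how the preparation bears on these genes. Foxj1 fell 1.54-fold (42.5 ± 17.2 CPM in flushed mice and 64.0 ± 10.3 in pools, SD, n = 4 each) and Ccdc40 fell 1.47-fold (22.9 ± 6.54 and 33.5 ± 5.64 CPM), while Mcidas rose 1.66-fold (3.10 ± 1.04 and 1.84 ± 0.388 CPM). The log2 differences were -0.62 (SE 0.19, adjusted p = 0.02) for Foxj1, -0.56 (SE 0.15, adjusted p = 0.012) for Ccdc40 and 0.73 (SE 0.25, adjusted p = 0.038) for Mcidas, by edgeR's quasi-likelihood test with Benjamini-Hochberg adjustment over all genes. So 3 of the 10 genes passed, against a background of 45.5% of all genes tested, with 22.6% higher and 22.9% lower in flushed mice, and the share of members is no larger than the background. No member had flushed and pooled libraries that did not overlap, a pattern seen in 21.3% of all genes with flushed above pools and 20.4% with flushed below. Genes of 3 other cell types are given beside the same background of 45.5%. Of 9 basal epithelial genes, 4 fell and 1 rose in flushed mice (55.6%, median log2 difference -0.50). Of 10 tested airway secretory genes, 2 fell and 1 rose (30%, median -0.25, 9 of 10 with lower estimates). Nothing about these 2 lists is read from their shares. Of 6 red blood cell genes, 6 fell, and their summed level was 1640 to 2050 CPM in pools, 105 and 114 CPM in flushed females and 596 and 619 CPM in flushed males. The part of these cells in the motile cilia values was not tested.

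The other 7 genes had log2 differences from -0.38 (Dnai1) through -0.32 (Rsph1), -0.26 (Tekt1), -0.03 (Dnah5), 0.00 (Dnah9) and 0.15 (Dnah11) to 0.24 (Ccdc39), with SEs of 0.11 to 0.26 and adjusted p from 0.11 to 1. The median of the 10 was -0.14, and that of all genes tested was -0.02. Without flushed female 3, Foxj1, Ccdc40, Dnai1, Tekt1 and Rsph1 passed, all lower in flushed mice, and Mcidas did not. Without male pool 1, no member passed (smallest adjusted p 0.053, edgeR), and the call of Foxj1 ended on leaving out any library other than female pool 2 or flushed female 3. Within females alone the log2 difference was -0.40 for Foxj1, -0.46 for Ccdc40 and 0.45 for Mcidas, and none of the 3 passed. Within males alone it was -0.85, -0.67 and 1.03, and Foxj1 passed (adjusted p = 0.039, edgeR).

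**Figure D3:**
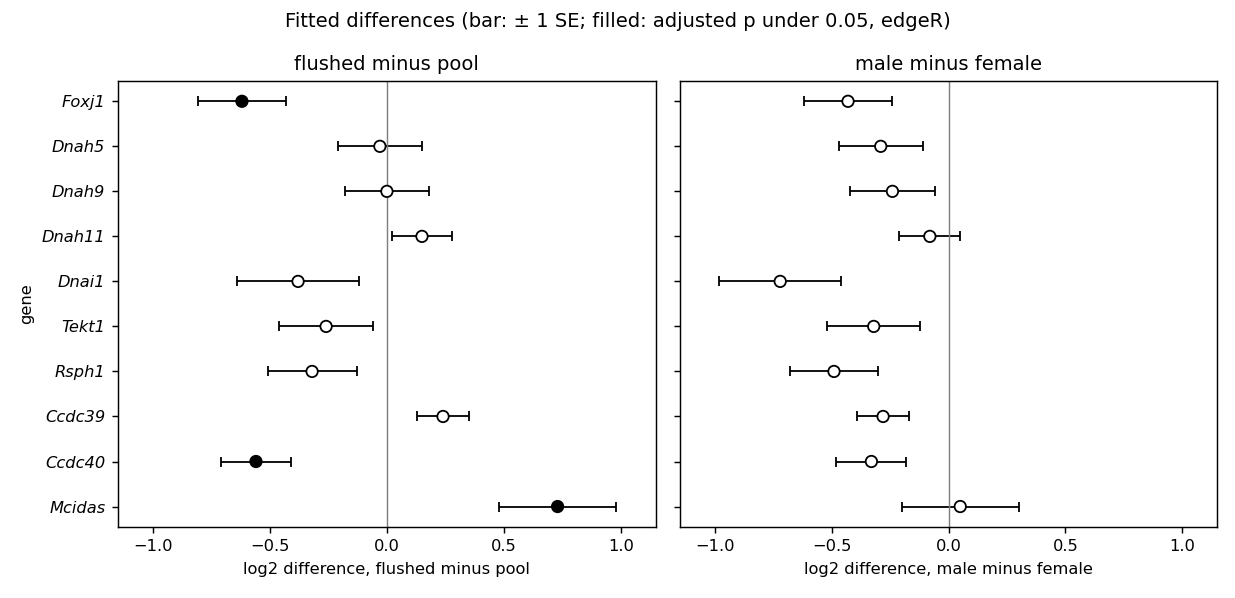
Fitted log2 difference of each of the 10 genes (rows) between flushed mice and pools (left) and between males and females (right). Bars are ± 1 SE and filled points have an adjusted p under 0.05 by edgeR. Foxj1 and Ccdc40 are filled below 0 and Mcidas above 0 on the left, and no point is filled on the right.

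GC content moved with the preparation difference. Across all tested genes with a value, the GC percent of the longest transcript and the log2 difference had Pearson r = -0.56 (Spearman -0.68) across genes, which are not independent replicates. Across the 123 motile cilia genes r was -0.52, and across the 10 members -0.51. Foxj1 had the highest GC content of the 10 (61.4%) and Ccdc39 the lowest (39.9%), while its ruler partner Ccdc40 had 54.6%. Mcidas, at 53.6%, lay above the trend. With the counts corrected for GC content and length, an alternative chosen after seeing the data, Foxj1 was at -0.18 (SE 0.21, adjusted p = 0.58) and Ccdc40 at -0.37 (SE 0.16, adjusted p = 0.12), so neither passed by edgeR. Over all 17 alternatives, adjusted p ran from 5.2e-15 to 0.58 for Foxj1 and from 2.9e-09 to 0.14 for Ccdc40. Ccdc39 turned from 0.24 to -0.28 (adjusted p = 0.10, range 0.0019 to 0.76), which put both ruler genes on the same side. Mcidas was at 0.96 and passed (adjusted p = 0.027), although its range over the alternatives was 0.0006 to 0.36, and leaving out any of 5 libraries (male pool 1, male pool 2, female pool 2, flushed female 3 or flushed male 3) ended its call, as did limma-voom (adjusted p = 0.055).

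**Figure D4:**
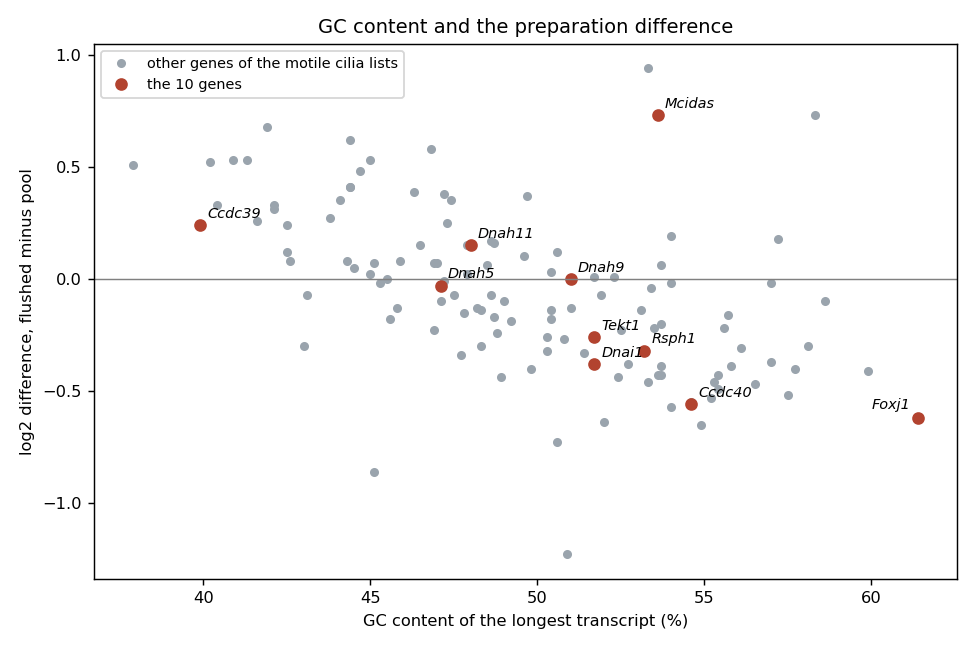
GC content of the longest transcript in percent (horizontal axis) and log2 difference between flushed mice and pools (vertical axis) for 123 tested motile cilia genes. Red points are the 10 genes. Differences fall with GC content, from Ccdc39 at 0.24 to Foxj1 at -0.62, and Mcidas at 0.73 lies above the other members.

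Among the 123 tested genes of the 9 lists, 9 rose and 21 fell in flushed mice, which is 24.4% against 45.5% of all genes tested. With the GC and length correction 4 rose and 6 fell, which is 8.13% against 22.5% of all genes. Calls in these lists were thus no more frequent than over all genes, and the genes named below are given as single values. Without flushed female 3, 42 of the 123 passed, and without any 1 of male pool 1, male pool 2, flushed female 2, flushed male 1 or flushed male 3, between 15 and 19 passed. In the ruler and nexin-dynein link, described first because its counts were seen to lie on 1 side, 6 of 11 fell (54.5%, against 22.9% of all genes) and none rose by edgeR (against 22.6%). The same 6 and no others had an unadjusted p under 0.05. Ccdc65 (-0.73), Drc1 (-0.64) and Gas8 (-0.46), subunits of the nexin-dynein link that couples neighbouring doublets, were lower, as were Drc7 (-0.55), Iqcd (-0.47) and Ccdc40. With the correction, Ccdc65 passed and the other 5 did not. Of the outer arm and docking list, Dnai2 (-0.53) and the docking factor Ccdc151 (-0.65) fell and the light chain Dnal1 rose (0.62). Of the inner arm list, the heavy chains Dnah12 (0.68) and Dnah7b (0.41) rose, and Dnah7b has close copies in Dnah7a and Dnah7c, among which fractional counting can divide reads. Of the radial spoke list, Rsph9 (-0.22), Maats1 (-0.32) and the near-identical pair Rsph3a (-0.43) and Rsph3b (-0.43) fell, and the last 2 are uncertain as separate genes. Of the tektin list, Tekt2 (-0.57), Cfap45 (-0.40) and Cfap53 (-0.86) fell, and of the central pair list, Cfap69 rose (0.53). Of the ciliated cell markers, Tppp3 (-0.37), 1110017D15Rik (-0.49) and Ccdc113 (-0.44) fell. With the correction, Dnal1 (0.37) and Cfap53 (-1.01) passed, and no other gene named here outside the ruler list did. Ccdc114 (-0.41), Mns1 (-0.61) and Spag1 (-0.35) passed only with it.

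Of 17 regulators of multiciliated cell formation, 5 rose in flushed mice (Mcidas, Gmnc, Rfx3, E2f5 and Plk4) and 3 fell (Foxj1, E2f4 and Tfdp1). This share of 47.1% is near the 45.5% of all genes tested, and nothing about the list is read from it. Rfx3, an X-box binding factor (10.4 RPKM), rose from 94.5 to 135 CPM on average (log2 0.52, SE 0.06, adjusted p = 1e-04). E2f5, a partner of the Mcidas family, rose from 7.59 to 11.4 CPM (log2 0.58, SE 0.11, adjusted p = 0.0017). Gmnc, named like Plk4, E2f4, Cdc20b, Foxn4, Deup1 and Ccno after its values were seen, rose from 4.50 to 6.44 CPM (log2 0.51, SE 0.17, adjusted p = 0.032) and had the lowest GC content of the list (37.9%). Cdc20b, the host of a microRNA cluster of multiciliated cells, and Foxn4 missed the threshold with differences of 0.94 (adjusted p = 0.052) and 0.73 (adjusted p = 0.13). With the GC and length correction, Mcidas, Cdc20b and E2f5 passed as higher and Tfdp1 as lower, while Gmnc, Rfx3, Plk4, Foxj1 and E2f4 did not pass.

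The regulators also split by library. In flushed male 3, Mcidas (0.82), Cdc20b (0.99), Foxn4 (0.76), Deup1 (0.48) and Ccno (0.45) stood above their 8-library mean on the log2 scale, while Foxj1 (-0.48) and Ccdc78 (-0.34) stood below it. In female pool 1, Foxj1 (0.62) and Ccdc78 (0.55) were high and Mcidas (0.02) was at its mean. In flushed female 3, Foxj1 (0.42), Ccdc78 (0.53), Cdc20b (0.65), Deup1 (0.50) and Mcidas (0.37) were all above it. Among Mcidas, Cdc20b, Foxn4 and Ccno, several rest on low counts. The other genes of the list ran from -0.16 (Tfdp1) to 0.35 (E2f5) in flushed male 3, with Plk4 at 0.06 and Cep152 at -0.03. Several of the genes were named after their values were seen, so no stage is read from these values. No test was made between these libraries, each of which is 1 sample.

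**Figure D5:**
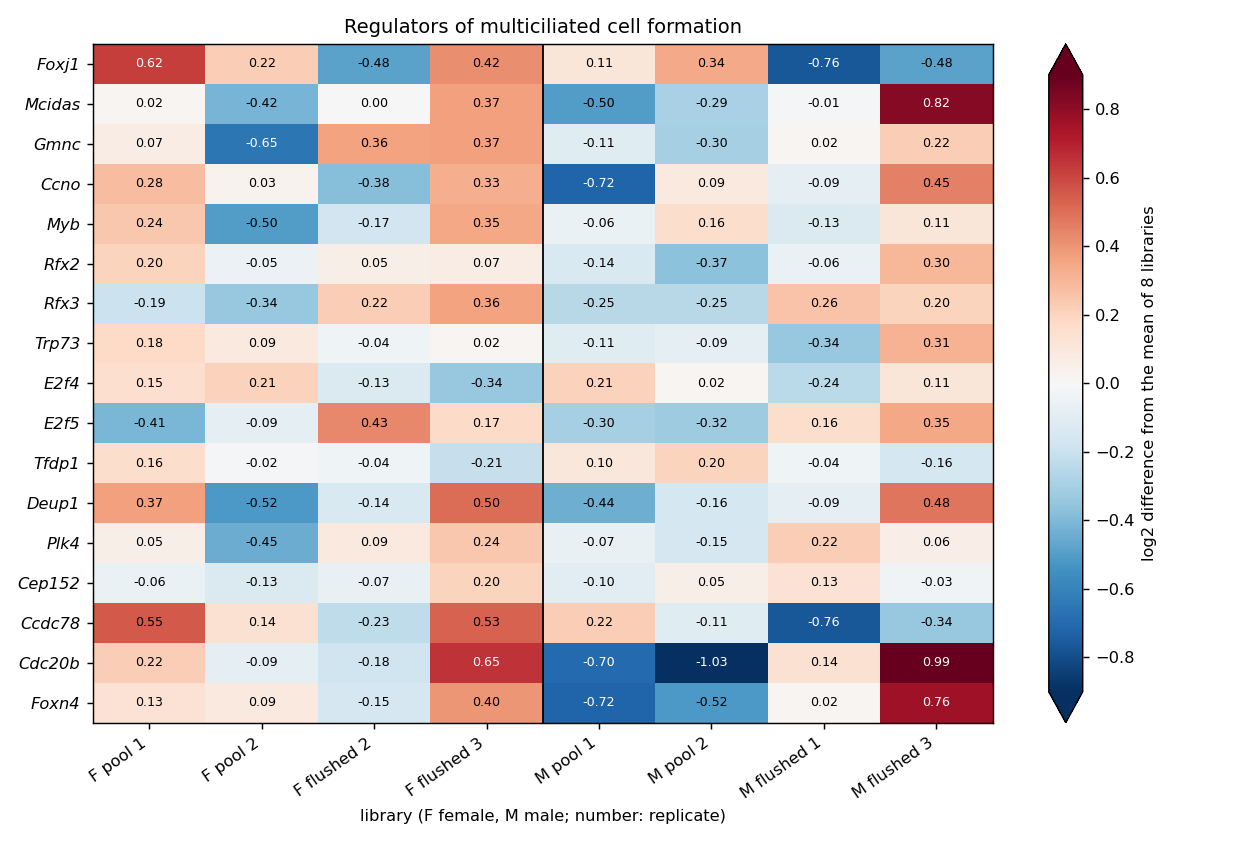
Log2 difference of each of 17 regulators of multiciliated cell formation (rows) from its mean over the 8 libraries (columns, females on the left; colour and printed number, log2 units). Flushed male 3 has Mcidas at 0.82 and Cdc20b at 0.99 while Foxj1 is at -0.48. Female pool 1 has Foxj1 at 0.62 and Mcidas at 0.02.

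Males were compared with females across both preparations. Of the 10 genes, 9 had lower estimates in males and none passed by edgeR, against a background of 0.116% of genes tested. Log2 differences ran from -0.72 (Dnai1, SE 0.26) through -0.49 (Rsph1), -0.43 (Foxj1), -0.33 (Ccdc40), -0.32 (Tekt1), -0.29 (Dnah5), -0.28 (Ccdc39), -0.24 (Dnah9) and -0.08 (Dnah11) to 0.05 (Mcidas, SE 0.25), with a median of -0.31 beside 0 over all genes. The smallest adjusted p was 0.52. At an unadjusted p under 0.05 there were 4 genes (Foxj1, Dnai1, Rsph1 and Ccdc39), against 7.96% of all genes, and DESeq2 and limma-voom passed none of the 10 either, with 4 and 3 at that level. Dnai1 measured 4.46 ± 1.57 CPM in males and 7.08 ± 2.29 in females (SD, n = 4 each), Foxj1 46.2 ± 16.0 and 60.3 ± 17.9, and Dnah5 282 ± 44.9 and 345 ± 94.1. Males and females overlapped in each of the 10 genes, and females lay wholly above males in 0.782% of all genes tested. With 1 library left out, the median of the 10 ran from -0.44 (without female pool 2) and -0.41 (without flushed female 2) to -0.22 (without flushed male 1) and -0.11 (without flushed female 3), and the other 4 libraries gave -0.37 to -0.25.

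Of the 123 tested genes of the lists, 112 had lower estimates in males (median -0.30), as did 10488 of all 20601 genes. None passed by edgeR, with 39 at an unadjusted p under 0.05, against 7.96% of all genes. Without flushed female 3 the median was -0.14 and 11 were at that level. These genes vary together across libraries, so their estimates are not independent. By DESeq2, Tppp3 passed (-0.52, adjusted p = 0.00148), and by limma-voom none did. Ciliated cell markers had a median of -0.44, and 22 of 22 had lower estimates in males. Airway secretory genes had a median of -0.19 with Muc5ac at -2.13 (adjusted p = 0.40, edgeR), and the summed level of that list was 9760 to 12700 CPM in males and 9450 to 15100 CPM in females. Red blood cell genes had higher estimates in males in 6 of 6 (median 1.35), with none past the adjusted threshold by edgeR and 6 at an unadjusted p under 0.05. The part of these cells in the motile cilia values was not tested.

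The sex difference was also compared between preparations. In pools the log2 difference between males and females was -0.21 for Foxj1, -0.05 for Dnah5 and -0.29 for Dnai1, and in flushed mice it was -0.66, -0.54 and -1.18. The interaction was -0.89 (SE 0.46) for Dnai1, -0.45 (SE 0.36) for Foxj1 and 0.58 (SE 0.50) for Mcidas, with a median of -0.32 over the 10 genes. None of the 10 passed by edgeR, against 0.0485% of genes tested, and none passed by DESeq2. None of the 10 had an unadjusted p under 0.05, against 3.25% of genes tested. Every adjusted p of the 10 was 1. Of 6 red blood cell genes, 5 passed the interaction (median 2.16 over the 6), which is 5 of the 10 genes that passed in all, and their part in the motile cilia values was not tested. Without flushed female 3 the interaction of Foxj1 was 0.07 and that of Rsph1 was 0.27.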

How the data were processed

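Per the submitters' processing notes, STAR 2.7.1a aligned the reads to GRCm38 (mm10) and featureCounts 1.6.5 counted them. Per the file headers, the authors deposited expected counts per gene: multimapping reads were shared as fractions, on the reverse strand and over exons. The labels' protocols give polyA selection and single-end reads of 100 nucleotides. Total counts ran from 18763557 to 22096792 in pools and from 22101913 to 24965088 in flushed mice. PCR duplicates cannot be told apart.

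Rounded counts entered edgeR 4.0.16 under R 4.3.3 (quasi-likelihood F test, TMM, filterByExpr, sex and preparation additive, then an interaction, Benjamini-Hochberg over 20601 genes, threshold 0.05). Each comparison set 4 libraries against 4. An SE is the log2 difference over the square root of F. CPM are unrounded counts over the TMM-scaled size of tested genes, and RPKM also divide by exon length. Replicates are separate mice or pools per the labels. Pools were numbered in listed order.

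Of 228 listed symbols, 227 matched. Members and lists were chosen with earlier results of these data known. Named genes are the members, the 3 highest and 3 of smallest p per list and comparison, and the 10 most alike, of which 1 is not reported here, and a smaller set was picked after values were seen. Genes of a list that passed, and genes of other cell types, were also named after their values were seen. Alternatives were DESeq2 1.42.0, limma-voom (limma 3.58.1), RLE, no filter, unrounded counts, a single factor, a single level and each library left out. The GC correction and the motif GTTGCC were added after seeing the data. Protein sequences were not used here.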

Additional observations from a re-analysis of the deposited data

Results flagged for a closer look

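Each of the 10 genes was checked in the 4 libraries of each sex and of each preparation, 40 sets in all, for a library whose gap to its nearest neighbour took more of the whole range than Dixon's critical value for 4 values. Chance alone marks about 1 in 20 such sets, and the genes are not independent of each other. In 4 sets flushed female 3 stood apart from the other 3 flushed libraries. It measured 19.2 CPM of Rsph1 (gap 0.946 of the range), 23.0 CPM of Tekt1 (0.923), 32.6 CPM of Ccdc40 (0.839) and 67.8 CPM of Foxj1, the last at the limit. In each case the library lay above the others.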

How the results depend on the processing

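No paired analysis was possible because the pools were numbered in listed order and the flushed groups share a single replicate number, 3. For the interaction, none of the 10 genes passed under any of the 12 alternatives run. Limma-voom, unrounded counts, a single factor and a single level were not used for it. For sex, none of the 10 passed under any alternative other than the fit with no low-count filter. That fit passed 784 genes for sex, 7 of the 10 and 56 motile cilia genes. For preparation it passed 6 of the 10 and 59 motile cilia genes, and for the interaction 263 genes, none of the 10 and 6 motile cilia genes. It tested 32514 genes, and its estimated prior degrees of freedom were infinite, against 5.26 with the filter. DESeq2 passed 124 genes for sex, 1 motile cilia gene and 28 genes for the interaction, against 24, 0 and 10 by edgeR. A single factor passed 7 genes for sex, and so did pools alone (7). Within females, 5533 genes, 0 of the 10 and 9 motile cilia genes passed for preparation, and within males 5086, 1 and 16, against 9377, 3 and 30 over both. The GC and length correction passed 4598, 1 and 10. Leaving out 1 library passed 8 to 25 genes for sex, 4 to 18 for the interaction, and for preparation 0 to 5 of the 10 and 15 to 42 motile cilia genes. The lowest of these came without male pool 1 for sex (8) and for the members (0), and without flushed female 3 for the interaction (4).

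Directions also turned, both for estimates near 0 and for larger ones that had not passed. For sex, Dnah11 (-0.08) was 0.05 in pools alone and Mcidas (0.05) was -0.27, and with 1 library left out they ran from -0.16 to 0.07 and from -0.26 to 0.22. For preparation, Dnah5 (-0.03) was 0.22 in females and 0 with no filter, Dnah9 (0) was -0.01 by limma-voom, -0.12 in males and -0.04 with the GC correction, Dnai1 (-0.38) was 0.03 in females, and Ccdc39 (0.24) was -0.28 with the GC correction. With 1 library left out, Dnah5 ran from -0.24 to 0.09, Dnah9 from -0.19 to 0.12 and Dnah11 from 0 to 0.24. For the interaction those ranges were -0.85 to 0.07 for Foxj1, -0.56 to 0.15 for Dnah9, -0.52 to 0.04 for Dnah11, -0.92 to 0.08 for Tekt1, -0.75 to 0.27 for Rsph1 and -0.53 to 0.19 for Ccdc40. The causes were not tested. Depth limits Mcidas most, at 28 to 101 reads per library.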
